A study of Homo sapiens with 9 samples.

Results

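The spliceosome genes described here are 69 of the 19918 gene symbols in each counts file. The rule that takes them uses symbols and no measured value: every symbol that begins with SNRP, every SF3A, SF3B, LSM, SRSF or PRPF symbol that continues with a number, and *U2AF1*, *U2AF2*, *TXNL4A*, *CLNS1A*, *PRMT5*, *WDR77*, *SMN1*, *GEMIN2*, *GEMIN4* and *GEMIN5*. RNA-seq had been carried out on VCaP, an established human prostate cancer cell line. The groups were a control, si025 and si033, each with 3 libraries, and the comparison asks how gene expression responds to loss of the long non-coding RNA (lncRNA) *IGF1R-AS1*. The labels give the control libraries the genotype WT and the others *IGF1R-AS1* knockdown. Cells had been reverse transfected with 100 pmol of siRNA and were collected 72 h later, and both knockdown siRNAs target exon 1 of the lncRNA. All 3 groups are the same cell line, the titles call the control only that, and the level of *IGF1R-AS1* itself was not analysed here. The study calls its knockdown experiments biological replicates, but neither it nor the labels say that the libraries of a group came from separate cultures, so *p* values measure the spread between these libraries, which may be technical.

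Introns are removed from precursor mRNA by the spliceosome, which assembles from small nuclear ribonucleoproteins (snRNPs), each a small nuclear RNA bound by proteins. The U1, U2, U4 and U5 RNAs each carry a ring of Sm proteins, which is loaded in the cytoplasm by the SMN complex after the PRMT5 methylosome has methylated several Sm tails, whereas the U6 RNA carries a ring of LSM proteins. U1 marks the start of the intron, U2AF and the SF3A and SF3B complexes place U2 at its branch point, the PRPF proteins bring in and rearrange the tri-snRNP of U4, U5 and U6, and the SR proteins (SRSF genes) bind exons and help to select splice sites.

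The libraries held between 11649811 and 28492259 counted read pairs, a ratio of 2.45, and the depth of control (11649811 to 26760578), si025 (12662828 to 22436104) and si033 (11963322 to 28492259) overlapped. The 69 genes together took 0.975% to 0.987% of the counts in the control libraries, 0.824% to 0.866% with si025 and 0.922% to 0.934% with si033, so the groups did not overlap. Markers of VCaP cells were present in every library, with *ERG* between 271.0 and 452.6 CPM (counts scaled to a common library size with TMM factors). *KLK3* was the lowest of those listed, between 11.9 and 42.1 CPM. The listed VCaP markers summed to 6398 to 6584 CPM in control, 6640 to 6959 CPM with si025 and 5353 to 5682 CPM with si033. The 10 listed markers of leukocytes, endothelium, fibroblasts and basal epithelium summed to 5.52 to 8.21 CPM in control, 7.09 to 9.24 CPM with si025 and 4.04 to 4.11 CPM with si033. Of these, *CD3E* and *KRT5* were at 0 throughout. Detected in every library were *KRT14* (1.24 to 4.98 CPM), *COL1A1* (1.17 to 3.80 CPM), *VWF* (0.619 to 2.03 CPM) and *DCN* (0.069 to 0.349 CPM). The part of these markers in the differences between groups was not tested. Because RNA came from whole cultures, fewer cells of a kind and less RNA per cell cannot be told apart.

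Most of the spliceosome genes were lower with si025 than in control, and more of them were lower than higher with si033. Of the 69 genes, 65 passed the expression filter and were tested; *LSM2*, *PRPF8*, *PRPF31* and *SMN1* did not pass. With si025, 49 of the 65 (75.4%) were called, meaning an adjusted *p* value under 0.05 in edgeR's quasi-likelihood test, 42 lower and 7 higher. Among all 12810 genes tested in that contrast 61.7% were called, 28.8% lower and 32.9% higher. With si033, 42 of the 65 (64.6%) were called, 34 lower and 8 higher, where 54.8% of all genes were called, 27.8% lower and 26.9% higher. The median log2 fold change was -0.26 with si025 and -0.12 with si033, against 0.02 and 0.00 over all genes tested.

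Few of the changes passed 1.5-fold. Only 7 of the 65 were called and past 1.5-fold with si025 (10.8%, against 19.3% of all genes) and 3 with si033 (4.62%, against 14.7%). Among called genes, the median absolute log2 fold change with si025 was 0.40 in the list and 0.40 over all genes. With si033 it was 0.23, against 0.36. Both contrasts use the same control libraries, so their values are given side by side and are not independent of each other. Tested directly, si025 and si033 differed at 44 of the 65 genes (67.7%, against 60.9% of all genes), with 34 lower and 10 higher with si025 (29.7% and 31.2% of all genes). The median difference was -0.15, against -0.00 over all genes, and 2 of the 65 passed 1.5-fold (3.08%, against 18.9%). Without the genes with duplicated exons, described below, 6 of 63 passed 1.5-fold with si025 and 1 of 63 between the siRNAs.

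The heat map of levels by library shows these shifts for 62 of the 63 genes left when 6 genes with duplicated exons, described next, are set aside. Summed over the 63, the level was 10030 ± 152 CPM in control, 8338 ± 223 CPM with si025 and 9181 ± 21.9 CPM after si033 (SD, n = 3).

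**Figure D1:**
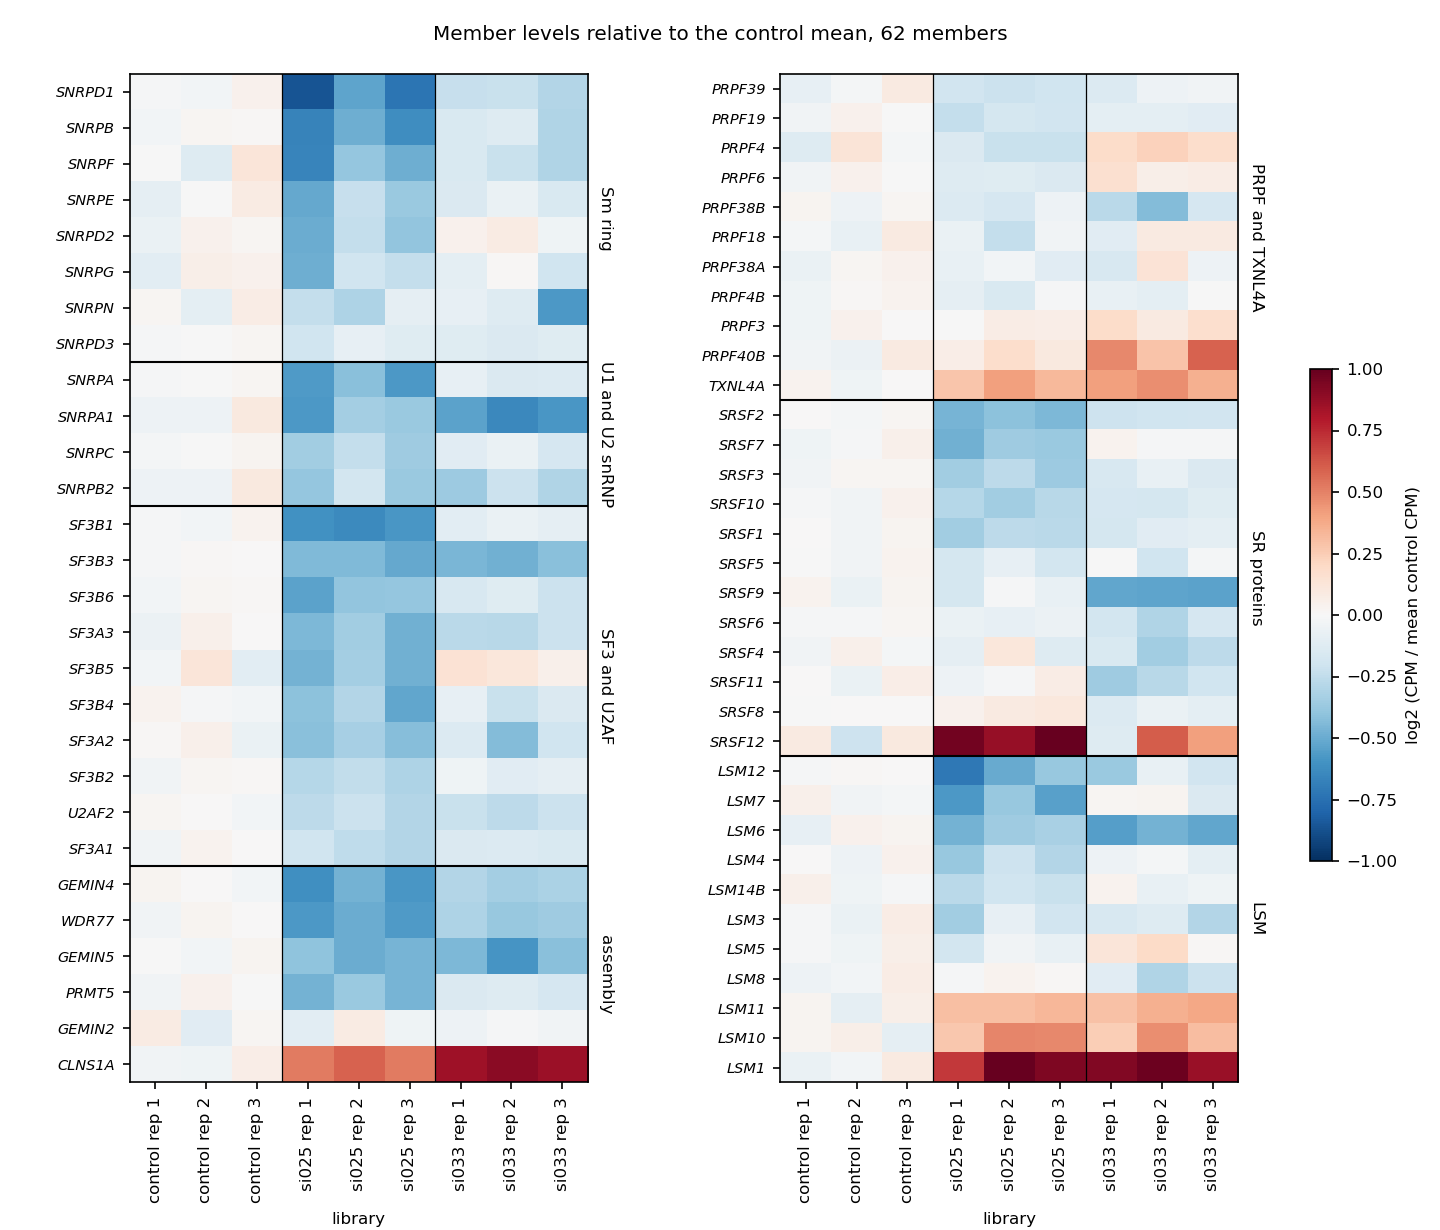
Level of 62 spliceosome genes (rows, grouped by role) in each of the 9 libraries (columns), as log2 of the CPM over the mean control CPM; blue is lower, red is higher, and values beyond 1 take the end colours. The si025 columns are blue for most rows of the Sm ring, the U1 and U2 snRNP proteins and the SF3 genes, whereas *LSM1*, *LSM10*, *LSM11*, *CLNS1A* and *TXNL4A* are red in all 6 knockdown libraries.

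**Figure D2:**
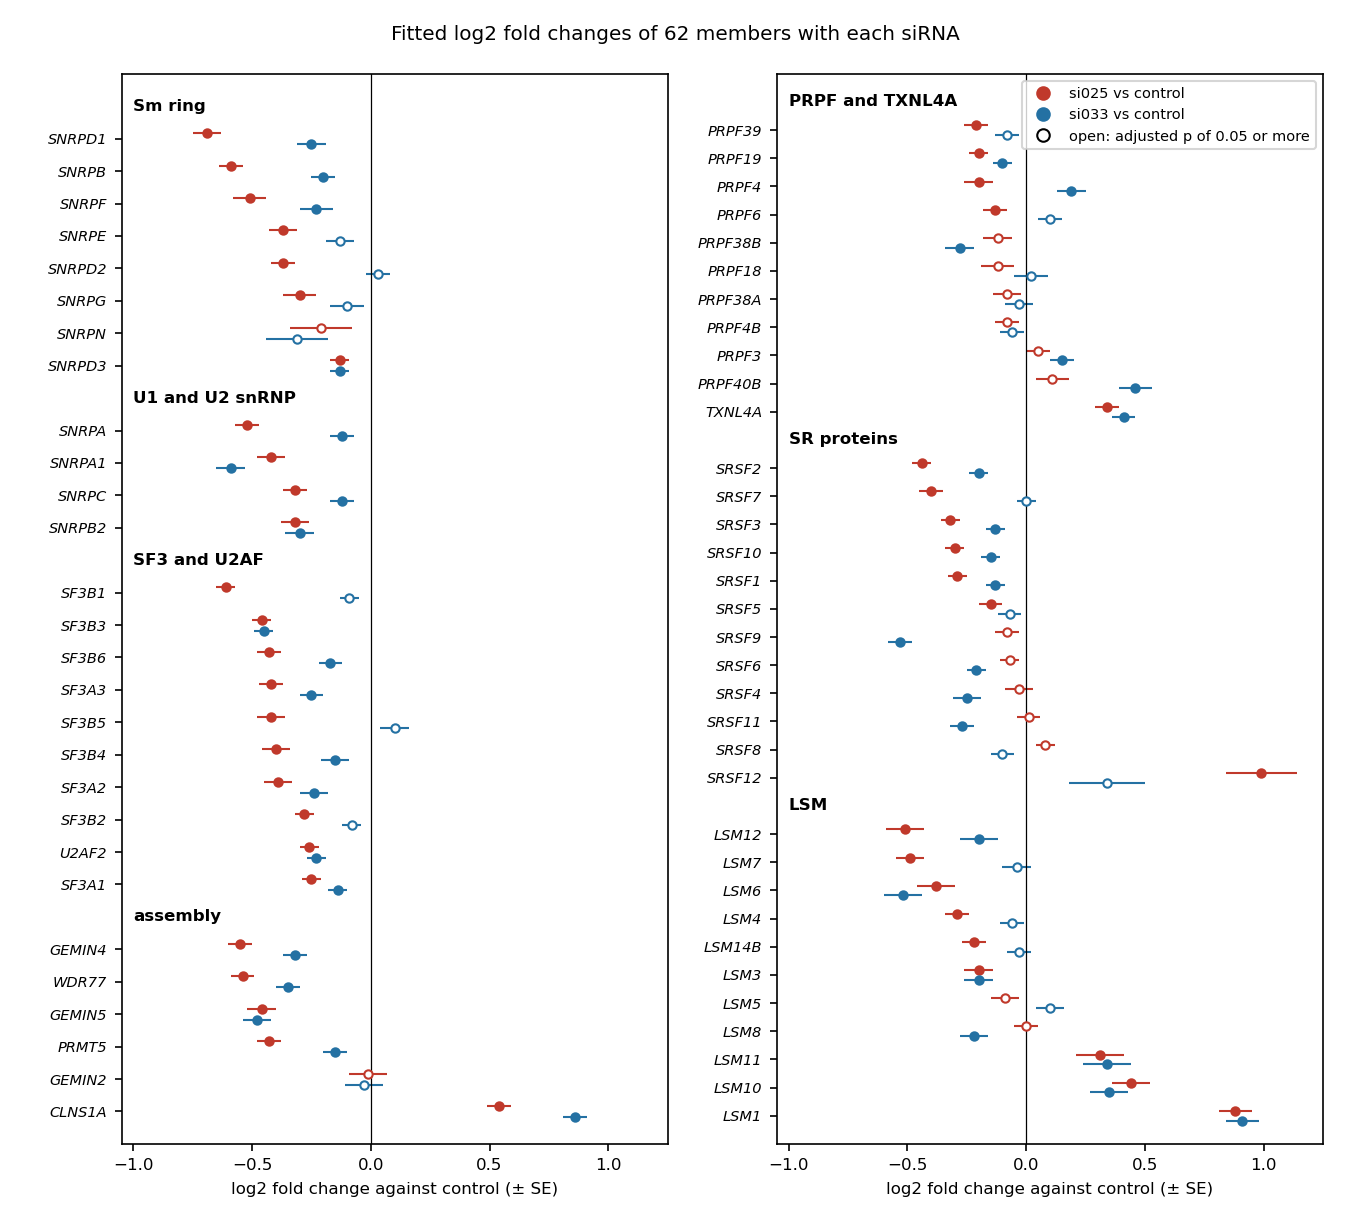
Fitted log2 fold change against control (x axis, ± SE) of the same 62 genes with si025 (red) and si033 (blue); open points have an adjusted p of 0.05 or more. With si025, 41 of these genes are called lower and 6 higher, and with si033, 33 lower and 8 higher.

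Before the roles are taken in turn, 6 genes need to be set apart, because their exons occur more than once in the hg38 assembly. By default the counting program leaves out read pairs that align in more than 1 place. For each gene, exon stretches of at least 50 bases with at least 99% identity were searched for elsewhere in hg38, which holds 455 sequences, 261 of them alternate versions of a region. For *PRPF8*, *LSM2*, *SMN1*, *PRPF31*, *LSM14A* and *U2AF1*, every exon base had such a copy (100%). Each of them had a library with fewer counts than any library of the other 63. *LSM2* had 0 counts in every library, *PRPF8* between 0 and 2, *SMN1* between 0 and 3, *PRPF31* between 4 and 65, *LSM14A* between 17 and 227 and *U2AF1* between 13 and 820. The other 63 genes had at least 50 counts in every library. Of these 63, 15 had some copied bases, with *LSM12* (68.8%) and *SNRPA1* (41.8%) the most. All 63 passed the filter, and without the copied genes 48 of 63 were called with si025 (6 higher, 42 lower), 42 with si033 (8 higher, 34 lower) and 43 between the siRNAs (9 higher, 34 lower).

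To show the duplication, a stretch of 48 coding bases is printed from each of the 6 genes (5′ to 3′ on the gene's strand, hg38). Each occurs without a mismatch at the other places named after it.
*PRPF8*, coding exon 25, chr17:1662005-1662052, minus strand: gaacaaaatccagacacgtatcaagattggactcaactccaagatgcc
*LSM2*, coding exon 5, chr6:31797797-31797844, minus strand: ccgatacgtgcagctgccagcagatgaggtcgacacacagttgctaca
*SMN1*, coding exon 4, chr5:70942434-70942481, plus strand: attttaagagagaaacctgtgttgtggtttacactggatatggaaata
*PRPF31*, coding exon 2, chr19:54118343-54118390, plus strand: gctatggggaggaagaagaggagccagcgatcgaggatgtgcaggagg
*LSM14A*, coding exon 9, chr19:34221598-34221645, plus strand: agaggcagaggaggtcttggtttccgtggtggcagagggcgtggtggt
*U2AF1*, coding exon 8, chr21:43093153-43093200, minus strand: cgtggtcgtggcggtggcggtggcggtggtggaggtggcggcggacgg

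The stretch of *PRPF8*, the protein at the heart of the spliceosome's active site, occurred 1 more time, on the alternate sequence chr17_KI270861v1_alt. That of *LSM2*, a subunit of the U6 ring, occurred 5 more times, all on alternate sequences of chromosome 6. For *SMN1*, which builds the Sm-loading complex, there were 4 further copies, 3 on alternate sequences and 1 on the primary chromosome 5 within the near-identical *SMN2* region (70067010 to 70067057). *PRPF31*, a protein of the U4 snRNP, had 9 further copies and *LSM14A*, a protein of cytoplasmic P-bodies that is not part of the spliceosome, had 1, all on alternate sequences. The copy of *U2AF1*, which reads the AG at the end of the intron, lay on primary chromosome 21 (6484820 to 6484867). Whether the authors' aligner index held the alternate sequences is not given in the sources used here, and the part that the copies play in the low counts was not tested.

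**Figure D3:**
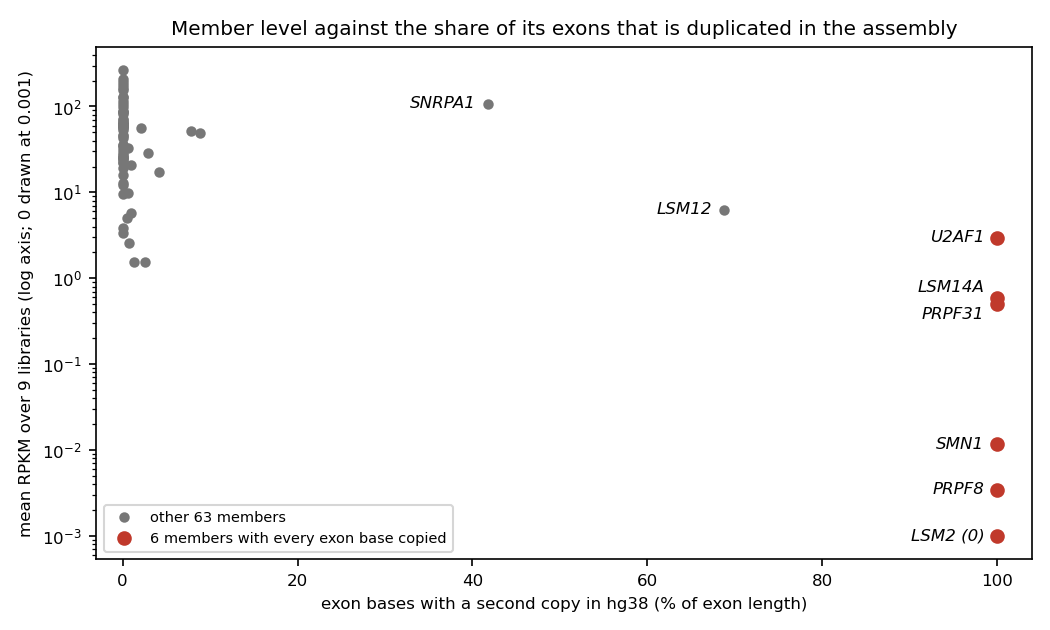
Mean RPKM over the 9 libraries (log axis; a level of 0 is drawn at 0.001) against the percentage of exon bases with a second copy in hg38, one point per gene. The 6 genes with 100% copied exons (red) reach at most 2.97 RPKM, and the other 63 (grey) lie at 1.53 RPKM or above.

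Within these 6 genes single libraries stood apart. *U2AF1* (chromosome 21, 43092956 to 43108291, minus strand) had 13, 21 and 24 counts in the control libraries, 14, 29 and 820 with si025 and 14, 16 and 46 with si033. A single si025 library, replicate 3, thus held more counts than the other 8 together. The gene was called higher with si025, at 3.60 (SE 0.86, adjusted *p* = 0.000885), and without that library the value was 0.17 (adjusted *p* = 0.663). *LSM14A* had 30, 28 and 58 counts in control, 17, 227 and 32 with si025 and 30, 106 and 52 with si033, with replicate 2 high in both knockdown groups. Its log2 fold changes of 1.10 and 0.72 were not called (adjusted *p* = 0.107 and 0.34). They turned to -0.72 without si025 replicate 2 and -0.17 without si033 replicate 2, neither called. With no filter on low counts both were called, at 1.09 and 0.72 (adjusted *p* = 1.56e-05 and 0.0109), as was the si025 value without si025 replicate 1 or 3, at 1.45 and 1.60 (adjusted *p* = 0.0323 and 0.0111). *PRPF31* had 65, 6 and 24 counts in control, 8, 8 and 13 with si025 and 8, 4 and 13 with si033, and control replicate 1 stood apart. *SMN1* (chromosome 5, 70924941 to 70953015, plus strand) had 0, 0 and 3 counts in control, 1, 0 and 0 with si025 and 0, 0 and 0 with si033. A count of 0 allows up to 3 counts, which is 0.105 to 0.258 CPM over these libraries before TMM scaling and covers counting error only, so no difference was detectable for *PRPF8*, *LSM2* and *SMN1*. In the paragraphs that follow, these genes are included in the counts of tested genes only where they passed the filter.

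Most of the Sm ring genes were lower with si025, and fewer of them were called lower with si033. With si025, 7 of 8 were called lower and none higher, and with si033, 4 of 8 lower and none higher; the exception with si025 was *SNRPN* (-0.21, adjusted *p* = 0.156), a tissue-restricted relative of *SNRPB* of whose exon bases 69.5% overlap *SNURF* on the same strand. The shares called lower were 87.5% with si025 and 50% with si033, against 28.8% and 27.8% of all genes. With si033 the 50% called compares with 54.8% of all genes called either way. The summed level of the ring genes was 1129 ± 30.3 CPM in control, 858 ± 63.6 CPM with si025 and 1035 ± 37.5 CPM after si033 (SD, n = 3). *SNRPD1* (chromosome 18, 21612269 to 21630247, plus strand), the D1 subunit of the ring, was expressed at 123, 122 and 128 CPM in the control libraries, 68.6, 86.5 and 74.99 CPM with si025 and 106, 107 and 102 CPM with si033. The 3 groups did not overlap, with si025 lowest and control highest. Its log2 fold change was -0.69 (SE 0.06, adjusted *p* = 1e-09) with si025 and -0.25 (SE 0.06, adjusted *p* = 0.00102) with si033. *SNRPB* (chromosome 20, 2461635 to 2470853, minus strand), which encodes the B subunit, was expressed at 219, 226 and 226 CPM in the control libraries, 141, 159 and 146 CPM with si025 and 202, 205 and 182 CPM with si033. Again every si025 library lay below every si033 library, and these below every control library. The log2 fold changes were -0.59 (SE 0.05, adjusted *p* = 1.19e-09) and -0.20 (SE 0.05, adjusted *p* = 0.00254).

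The other subunits moved by less. With si025 the log2 fold changes were -0.51 for *SNRPF*, -0.37 for *SNRPD2*, -0.37 for *SNRPE*, -0.30 for *SNRPG* and -0.13 for *SNRPD3*, all called. With si033, *SNRPF* (-0.23) and *SNRPD3* (-0.13) were called, and both calls were lost without control replicate 3 (adjusted *p* = 0.0755 and 0.0652), which left 2 of 8 called. In the other direction, 4 of the 17 alternatives called 6 of 8 lower, as *SNRPE* (-0.13) and *SNRPN* (-0.31) gained a call in 6 and 7 of the 17 (adjusted *p* = 0.0722 and 0.0528 as reported). *SNRPD2*, the most abundant of the 69 genes per length in control cells (284 RPKM, CPM per kilobase of exon), was at 234 ± 9.24 CPM in control, 181 ± 16.03 CPM with si025 and 239 ± 10.5 CPM after si033 (SD, n = 3). Its level with si033 was 0.03 from control on the log2 scale (adjusted *p* = 0.712). Here the siRNAs differed by -0.40 (SE 0.05, adjusted *p* = 1.27e-06). In all, 6 of the 8 ring genes (75%) were lower with si025 than with si033 and none was higher. Of all genes, 29.7% were lower and 31.2% higher in that contrast.

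The U1 and U2 snRNP proteins were called lower in 4 of 4 cases with each siRNA. Of all genes, 28.8% were called lower with si025 and 27.8% with si033. *SNRPA1* (chromosome 15, 101281510 to 101295282, minus strand), which holds a stem-loop of U2 RNA and has 41.8% copied exon bases, was expressed at 139, 139.7 and 155 CPM in the control libraries, 97.2, 114 and 112 CPM with si025 and 99.8, 92.5 and 96.6 CPM with si033. All 6 knockdown libraries lay below the control libraries, and the siRNA groups overlapped in 1 library. The log2 fold change was -0.42 (SE 0.06, adjusted *p* = 1.03e-06) with si025 and -0.59 (SE 0.06, adjusted *p* = 1.09e-08) with si033, the largest decrease among the 65 genes with si033. The difference between the siRNAs, 0.17 (SE 0.06, adjusted *p* = 0.0172), was lost in 3 of 17 alternatives, each a library left out (adjusted *p* up to 0.0797). *SNRPB2*, its partner on U2, changed by -0.32 (SE 0.06, adjusted *p* = 5.73e-05) and -0.30 (SE 0.06, adjusted *p* = 0.000153). *SNRPA*, the U1 counterpart, changed by -0.52 (SE 0.05, adjusted *p* = 5.86e-09) with si025 and -0.12 (SE 0.05, adjusted *p* = 0.0398) with si033, and the latter lost its call in 7 of 17 alternatives (adjusted *p* up to 0.142). *SNRPC*, which helps U1 to bind the intron start, changed by -0.32 (SE 0.05, adjusted *p* = 1.36e-05) and -0.12 (SE 0.05, adjusted *p* = 0.046), and the si033 value lost its call in 10 of 17 alternatives (adjusted *p* up to 0.219). Upper quartile normalization, the filter at 5 CPM and leaving out any control library or si033 replicate 3 each left 2 of the 4 called with si033.

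The genes that place U2 at the branch point were lower with si025 without exception other than *U2AF1*, whose value rests on a single library. Of 11 tested, 10 were called lower with si025 and 7 with si033, with *U2AF1* the 1 called higher with si025 and none higher with si033. The shares lower were 90.9% and 63.6%, against 28.8% and 27.8% of all genes. The summed level of the 10 genes other than *U2AF1* was 2513 ± 22.7 CPM in control, 1920 ± 34.7 CPM with si025 and 2229 ± 25.97 CPM with si033. *SF3B1* (chromosome 2, 197391974 to 197435093, minus strand), the branch-point clamp that is recurrently mutated in blood cancers, was expressed at 486, 478 and 501 CPM in the control libraries, 322, 314 and 326 CPM with si025 and 454, 466 and 459 CPM with si033. Its si025 libraries lay far below the others, and the si033 libraries lay just below control. The log2 fold change was -0.61 (SE 0.04, adjusted *p* = 6.03e-12) with si025 and -0.09 (SE 0.04, adjusted *p* = 0.0598) with si033, and the siRNAs differed by -0.52 (SE 0.04, adjusted *p* = 8.36e-11). The si033 value was called in 4 of 17 alternatives. *SF3B5* (chromosome 6, 144094881 to 144095617, minus strand), a small subunit of the same complex, was expressed at 49.6, 54.9 and 46.7 CPM in the control libraries, 36.4, 39.9 and 36.1 CPM with si025 and 55.6, 54.4 and 52.1 CPM with si033. Here the si033 libraries overlapped control and every si025 library lay below both. The log2 fold changes were -0.42 (SE 0.06, adjusted *p* = 5.98e-06) and 0.10 (SE 0.06, adjusted *p* = 0.166), and the difference was -0.52 (SE 0.06, adjusted *p* = 2.15e-07).

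*SF3B3*, the large scaffold subunit, was lower with each siRNA and is singled out after its values were seen. It was at 390.1 ± 2.55 CPM in control, 283 ± 7.71 CPM with si025 and 285 ± 6.16 CPM after si033 (SD, n = 3), changes of -0.46 (SE 0.04, adjusted *p* = 8.89e-10) and -0.45 (SE 0.04, adjusted *p* = 2.25e-09). Between the siRNAs the difference was -0.01, with a 95% interval of -0.09 to 0.07 (adjusted *p* = 0.792). *U2AF2* (chromosome 19, 55654050 to 55674716, plus strand), which binds the pyrimidine tract ahead of the intron end, was expressed at 309.9, 306 and 299 CPM in the control libraries, 255, 263 and 249 CPM with si025 and 262, 254 and 262 CPM with si033. All knockdown libraries lay below all control libraries. Its changes were -0.26 (SE 0.04, adjusted *p* = 1.06e-05) and -0.23 (SE 0.04, adjusted *p* = 4.73e-05). The remaining 6 genes (*SF3A1*, *SF3A2*, *SF3A3*, *SF3B2*, *SF3B4* and *SF3B6*) changed by -0.43 to -0.25 with si025, all called. With si033 their values were -0.25 to -0.08; *SF3B2* was not called (adjusted *p* = 0.0756) other than in 3 of 17 alternatives, *SF3B4* lost its call in 8 of 17 alternatives (adjusted *p* up to 0.148) and *SF3A1* lost its call without control replicate 2 (adjusted *p* = 0.0519).

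The PRPF genes and *TXNL4A* split in direction. Of 12 tested, 5 were called lower and 1 higher with si025 (50% in all, against 61.7% of all genes), and 3 lower and 4 higher with si033. With si033 that is 25% lower and 33.3% higher, near the 27.8% and 26.9% of all genes. The summed level was 1234 ± 27.6 CPM in control, 1110 ± 15.5 CPM with si025 and 1244 ± 14.95 CPM with si033. *PRPF40B* (chromosome 12, 49622717 to 49644669, plus strand), a U1-associated protein, was expressed at 25.9, 25.5 and 28.2 CPM in the control libraries, 27.8, 30.1 and 28.4 CPM with si025 and 37.1, 32.4 and 40 CPM with si033. The si033 libraries stood above all others, and si025 and control overlapped. Its log2 fold changes stood at 0.11 (SE 0.07, adjusted *p* = 0.22) and 0.46 (SE 0.07, adjusted *p* = 1.02e-05), and the siRNAs differed by -0.36 (SE 0.07, adjusted *p* = 0.00014).

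*TXNL4A* (chromosome 18, 79972867 to 80033935, minus strand), a small protein of the U5 snRNP, was the 1 gene of this group called higher with si025. It was expressed at 81.2, 77.1 and 79.7 CPM in the control libraries, 96.01, 105 and 99.5 CPM with si025 and 106, 109 and 101 CPM with si033. Every knockdown library lay above every control library. The changes were 0.34 (SE 0.05, adjusted *p* = 3.58e-06) and 0.41 (SE 0.05, adjusted *p* = 4.12e-07). *PRPF4* (chromosome 9, 113275634 to 113292905, plus strand), a protein of the U4 and U6 snRNP, was called lower with si025 and higher with si033, which held for no other gene of the 65. It was expressed at 70.1, 83.8 and 75.6 CPM in the control libraries, 69.2, 65.5 and 65.6 CPM with si025 and 86.8, 89.9 and 86.3 CPM with si033. The control libraries lay between the siRNA groups without overlap. Its changes were -0.20 (SE 0.06, adjusted *p* = 0.00394) and 0.19 (SE 0.06, adjusted *p* = 0.00563), and the difference was -0.40 (SE 0.06, adjusted *p* = 2.23e-06). *PRPF3*, which joins PRPF4 on that snRNP, stood at 0.05 (SE 0.05, adjusted *p* = 0.39) and 0.15 (SE 0.05, adjusted *p* = 0.0119), the latter lost without si033 replicate 3 (adjusted *p* = 0.0559). *PRPF39*, *PRPF19* and *PRPF6*, also called lower with si025, changed by -0.21, -0.20 and -0.13, and *PRPF6* lost its call without control replicate 2 or si025 replicate 3 (adjusted *p* = 0.066 and 0.0547). With si033, *PRPF38B* was lower, at -0.28 (SE 0.06, adjusted *p* = 0.000326), and *PRPF19*, at -0.10, lost its call in 10 of 17 alternatives (adjusted *p* up to 0.195). *PRPF18*, *PRPF38A* and *PRPF4B* were called in neither contrast with control, with values between -0.12 and 0.02.

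Among the 12 SR protein genes, all tested, 6 were called lower and 1 higher with si025, and 8 lower and none higher with si033. The shares with si025 were 50% lower and 8.33% higher, against 28.8% and 32.9% of all genes. In all, 58.3% were called with si025, near the 61.7% of all genes. With si033, 66.7% were called lower, against 27.8% of all genes. The summed level was 3462 ± 64.3 CPM in control, 2998 ± 63.97 CPM with si025 and 3052 ± 43.6 CPM with si033. Between the siRNAs, 11 of the 12 genes differed (91.7%, against 60.9% of all genes), 6 higher and 5 lower with si025. *SRSF9* (chromosome 12, 120461668 to 120469755, minus strand), per length the second most abundant of the 69 genes in control cells (240.1 RPKM), was expressed at 287, 266 and 285 CPM in the control libraries, 248, 276 and 266 CPM with si025 and 195, 194 and 192 CPM with si033. The si033 libraries lay below all others, and the si025 and control libraries overlapped. Against control it stood at -0.08 (SE 0.05, adjusted *p* = 0.112) and -0.53 (SE 0.05, adjusted *p* = 1.67e-09), with a difference of 0.44 (SE 0.05, adjusted *p* = 1.98e-08). *SRSF11* (chromosome 1, 70205682 to 70252020, plus strand) was expressed at 293, 279 and 306 CPM in the control libraries, 283, 289.8 and 308 CPM with si025 and 229, 242 and 255 CPM with si033. Here too si033 lay below, and the si025 and control libraries overlapped. The log2 values were 0.01 (SE 0.05, adjusted *p* = 0.934) and -0.27 (SE 0.05, adjusted *p* = 5.41e-05), with a difference of 0.28 (SE 0.05, adjusted *p* = 3.31e-05).

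*SRSF12* (chromosome 6, 89095957 to 89118081, minus strand), a low-abundance relative of *SRSF10* known to repress splicing, was expressed at 4.80, 3.91 and 4.83 CPM in the control libraries, 8.80, 8.24 and 9.99 CPM with si025 and 4.12, 6.89 and 6.005 CPM with si033. The si025 libraries lay above every control library, whereas the si033 libraries spread from the control range to values between control and si025. The gene stood at 0.99 (SE 0.15, adjusted *p* = 4.75e-06) and 0.34 (SE 0.16, adjusted *p* = 0.0805), and the siRNAs differed by 0.65 (SE 0.14, adjusted *p* = 0.000402). Without si033 replicate 1 the si033 value was 0.49 and was called (adjusted *p* = 0.00922). It was the largest called increase with si025 apart from *U2AF1*. *SRSF2* and *SRSF7*, which act as splicing activators through exonic enhancers, changed by -0.44 (SE 0.04, adjusted *p* = 1.06e-09) and -0.40 (SE 0.05, adjusted *p* = 6.38e-08) with si025. With si033 their values were -0.20 (SE 0.04, adjusted *p* = 0.00013) and 0.00 (SE 0.04, adjusted *p* = 0.982). *SRSF1*, *SRSF3* and *SRSF10* changed by -0.29, -0.32 and -0.30 with si025 and by -0.13, -0.13 and -0.15 with si033, all called; with si033 *SRSF1* lost its call without control replicate 3 or si033 replicate 1 (adjusted *p* = 0.0625 and 0.0616), and *SRSF3* lost its call in 4 of 17 alternatives (adjusted *p* up to 0.0644), each a library left out. *SRSF4* and *SRSF6* were not called with si025 (-0.03 and -0.07) and were lower with si033 (-0.25 and -0.21, adjusted *p* = 0.00153 and 0.000128). *SRSF5*, at -0.15 with si025, lost its call without control replicate 3 or si025 replicate 3 (adjusted *p* = 0.058 and 0.0694), and *SRSF8* was called in neither contrast with control.

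The LSM genes held changes in both directions. Of 12 tested, 6 were called lower and 3 higher with si025, and 4 lower and 3 higher with si033, and in each contrast the 3 called higher were *LSM1*, *LSM10* and *LSM11*. The shares were 50% lower and 25% higher with si025 (28.8% and 32.9% of all genes) and 33.3% and 25% with si033, the latter near the 27.8% and 26.9% of all genes. LSM1 takes the place of LSM8 in the ring that promotes mRNA decay in the cytoplasm, and LSM10 and LSM11 belong to the ring of the U7 snRNP, which trims histone mRNA, so that none of the 3 is a spliceosome subunit; *LSM10* and *LSM11* are singled out after their values were seen. *LSM1* was expressed at 32.8, 33.9 and 36.6 CPM in the control libraries, 56.2, 68.5 and 65.9 CPM with si025 and 65.4, 68.01 and 62.7 CPM with si033. Every knockdown library lay well above every control library. The changes were 0.88 (SE 0.07, adjusted *p* = 1.22e-10) and 0.91 (SE 0.07, adjusted *p* = 1.23e-10), the largest increase with si033, and the siRNAs differed by -0.03 with a 95% interval of -0.15 to 0.10. *LSM10* was at 14.99 ± 0.784 CPM in control, 20 ± 1.68 CPM with si025 and 19.01 ± 1.48 CPM after si033 (SD, n = 3), and *LSM11* at 8.72 ± 0.470, 10.8 ± 0.161 and 11.1 ± 0.342 CPM. Neither gene's knockdown libraries overlapped its control libraries. With si025 the changes were 0.44 (SE 0.08, adjusted *p* = 5.69e-05) and 0.31 (SE 0.10, adjusted *p* = 0.0081), and with si033 0.35 (SE 0.08, adjusted *p* = 0.00101) and 0.34 (SE 0.10, adjusted *p* = 0.00417).

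Of the subunits of the U6 ring (*LSM2* to *LSM8*), *LSM2* could not be tested. *LSM6* (chromosome 4, 146175683 to 146204436, plus strand) was expressed at 17.5, 19.1 and 18.9 CPM in the control libraries, 13.3, 14.4 and 14.8 CPM with si025 and 12.6, 13.3 and 12.9 CPM with si033. Both knockdown groups lay below control. It changed by -0.38 (SE 0.08, adjusted *p* = 0.000149) with si025 and -0.52 (SE 0.08, adjusted *p* = 5.94e-06) with si033. *LSM7* (chromosome 19, 2321521 to 2328615, minus strand) was expressed at 52.5, 49.3 and 49.95 CPM in the control libraries, 34.03, 38.9 and 34.8 CPM with si025 and 51.2, 51.7 and 45.7 CPM with si033. The si025 libraries lay below all others, and the si033 and control libraries overlapped. It stood at -0.49 (SE 0.06, adjusted *p* = 6.79e-07) and -0.04 (SE 0.06, adjusted *p* = 0.615), and the difference was -0.45 (SE 0.06, adjusted *p* = 2.39e-06). *LSM4* stood at -0.29 (SE 0.05, adjusted *p* = 1.54e-05) with si025 and -0.06 (SE 0.05, adjusted *p* = 0.313) with si033. *LSM8*, which confers the nuclear identity of the ring, stood at 0.00 (SE 0.05, adjusted *p* = 0.962) with si025 and -0.22 (SE 0.06, adjusted *p* = 0.0025) with si033. *LSM3* was at -0.20 with each siRNA, and both calls were lost without control replicate 3 (adjusted *p* = 0.0541 and 0.0753); the si033 call was also lost without si033 replicate 3 (adjusted *p* = 0.0816). *LSM5* was called in neither contrast with control. Outside the rings, *LSM12* was at -0.51 (SE 0.08, adjusted *p* = 1.28e-05) with si025 and -0.20 (SE 0.08, adjusted *p* = 0.0373) with si033, where it lost its call in 8 of 17 alternatives (adjusted *p* up to 0.169), and *LSM14B*, a relative of *LSM14A*, was at -0.22 (SE 0.05, adjusted *p* = 0.00035) and -0.03 (SE 0.05, adjusted *p* = 0.658).

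The genes that load the Sm ring went in opposite directions within the methylosome. The methylosome holds PRMT5, which methylates arginines of Sm proteins, with WDR77, its obligate partner, and CLNS1A (also known as pICln), a chaperone that brings the Sm proteins to it. *CLNS1A* (chromosome 11, 77616151 to 77637806, minus strand) was expressed at 103, 103 and 111 CPM in the control libraries, 152, 159 and 152 CPM with si025 and 190, 197 and 191 CPM with si033. The groups were ordered control, si025, si033 with no overlap. It changed by 0.54 (SE 0.05, adjusted *p* = 8.07e-10) with si025 and 0.86 (SE 0.05, adjusted *p* = 3.36e-13) with si033, and the siRNAs differed by -0.32 (SE 0.04, adjusted *p* = 1.56e-06). Of its exon bases 17.4% overlap another gene on the same strand. *WDR77* (chromosome 1, 111439890 to 111449308, minus strand) was expressed at 107, 112 and 111 CPM in the control libraries, 73.9, 78.2 and 74.2 CPM with si025 and 88.9, 84.6 and 86 CPM with si033. Its groups were ordered the other way, with si025 lowest and control highest. The changes were -0.54 (SE 0.05, adjusted *p* = 9.37e-10) and -0.35 (SE 0.05, adjusted *p* = 1.45e-06). *PRMT5* (chromosome 14, 22920511 to 22929585, minus strand) was expressed at 161, 169.6 and 164 CPM in the control libraries, 119, 128 and 119 CPM with si025 and 149, 151 and 146 CPM with si033. It followed the order of *WDR77*. The changes were -0.43 (SE 0.05, adjusted *p* = 1.97e-08) and -0.15 (SE 0.05, adjusted *p* = 0.00762), the latter lost without control replicate 2 (adjusted *p* = 0.055).

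In the SMN complex, *GEMIN4* (chromosome 17, 744421 to 752868, minus strand) was expressed at 99.6, 97.8 and 95.6 CPM in the control libraries, 63.7, 70.3 and 65.3 CPM with si025 and 79.8, 77.1 and 78.2 CPM with si033. The groups did not overlap, with si025 lowest. It changed by -0.55 (SE 0.05, adjusted *p* = 1.78e-09) and -0.32 (SE 0.05, adjusted *p* = 1.06e-05). *GEMIN5* (chromosome 5, 154887416 to 154938216, minus strand), the subunit that recognises the small nuclear RNAs, was expressed at 62.6, 61.5 and 63.8 CPM in the control libraries, 47.3, 44.3 and 45.3 CPM with si025 and 45.98, 41.6 and 46.9 CPM with si033. Both knockdown groups lay below control and overlapped each other. The changes were -0.46 (SE 0.06, adjusted *p* = 1.69e-07) and -0.48 (SE 0.06, adjusted *p* = 1.81e-07), with a difference of 0.01 (95% interval -0.10 to 0.13). *GEMIN2* (chromosome 14, 39114261 to 39136973, plus strand), which holds the Sm proteins in the complex, was expressed at 18.2, 15.8 and 17.4 CPM in the control libraries, 15.9, 18.1 and 16.6 CPM with si025 and 16.6, 17.02 and 16.7 CPM with si033. All 3 groups overlapped. Its values were -0.01 with si025 (95% interval -0.17 to 0.14) and -0.03 with si033 (-0.18 to 0.12). In all, 4 of the 6 tested assembly genes were called lower and 1 higher with each siRNA (66.7% and 16.7%). Of all genes, 28.8% were lower and 32.9% higher with si025, and 27.8% and 26.9% with si033.

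**Figure D4:**
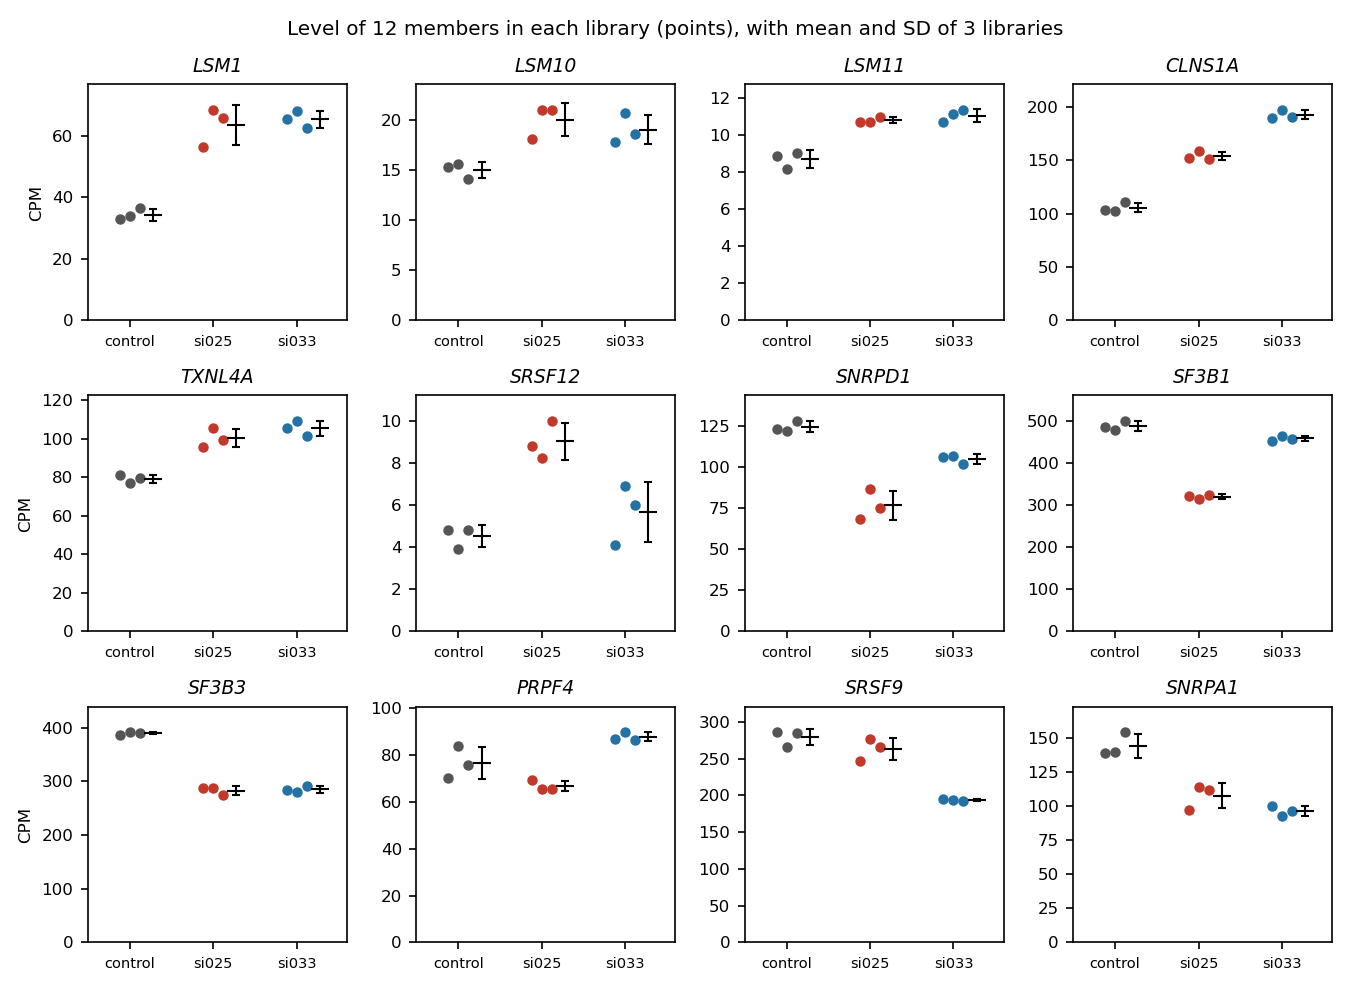
CPM of 12 spliceosome-list genes in each library (points) with the mean and SD of 3 libraries (black), for control (grey), si025 (red) and si033 (blue); each y axis starts at 0. *LSM1*, *LSM10*, *LSM11*, *CLNS1A* and *TXNL4A* lie above control in all 6 knockdown libraries, *SNRPD1* and *SF3B1* are lowest with si025, *SRSF9* is lowest with si033, and *PRPF4* lies below control with si025 and above it with si033; *LSM10*, *LSM11* and *SF3B3* were chosen for display after their values were seen.

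Per length of exon, the levels of the list in control cells spanned a wide range. The highest were *SNRPD2* (284 ± 11.2 RPKM), *SRSF9* (240.1 ± 9.56 RPKM), *SF3B2* (207 ± 3.92 RPKM) and *SF3B6* (206 ± 3.39 RPKM; SD, n = 3). *SF3B2* and *SF3B6* did not differ beyond that spread. The lowest of the 63 genes without full copies were *LSM11* (1.32 ± 0.0713 RPKM) and *SRSF12* (1.08 ± 0.125 RPKM).

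Other genes of splicing, snRNP assembly and SR protein control, 48 in a list that the symbol rule does not take, were more often called lower than higher. Of 46 that passed the filter, 25 were called with si025 (54.3%), 5 higher and 20 lower, 21 with si033 (45.7%), 7 higher and 14 lower, and 28 between the siRNAs (60.9%), 5 higher and 23 lower with si025. Over all genes tested the shares called were 61.7%, 54.8% and 60.9%. The shares lower were 43.5% with si025, 30.4% with si033 and 50% between the siRNAs, against 28.8%, 27.8% and 29.7% of all genes. The shares higher were 10.9%, 15.2% and 10.9%, against 32.9%, 26.9% and 31.2%. *SMN2* and *CLK2* did not pass. *SRPK1*, which drives SR proteins into the nucleus, fell from 193 ± 4.07 CPM in control to 122 ± 4.82 CPM after si025 and 154 ± 1.06 CPM after si033 (SD, n = 3), changes of -0.67 (SE 0.04, adjusted *p* = 9.3e-12) and -0.33 (SE 0.04, adjusted *p* = 1.38e-06). *SRPK2*, its paralog, was higher, at 0.35 (SE 0.05, adjusted *p* = 1.57e-06) with si025 and 0.17 (SE 0.05, adjusted *p* = 0.00619) with si033. *CLK4*, a nuclear kinase of SR proteins, was higher, at 0.40 (SE 0.07, adjusted *p* = 7.88e-05) with si025 and 0.27 (SE 0.08, adjusted *p* = 0.00524) with si033. Of the other kinases in the list that act on SR proteins, *CLK1* stood at -0.18 (SE 0.05, adjusted *p* = 0.00361) and -0.07 (SE 0.05, adjusted *p* = 0.229), and *CLK3* at 0.01 (SE 0.05, adjusted *p* = 0.86) and 0.06 (SE 0.05, adjusted *p* = 0.375).

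*SYF2*, a protein of the catalytic spliceosome, was also higher, at 0.29 (SE 0.06, adjusted *p* = 0.000122) and 0.34 (SE 0.06, adjusted *p* = 2.24e-05). Among the lowest with si025 were *GEMIN8*, of the SMN complex, at -0.49 (SE 0.07, adjusted *p* = 1.43e-06), and *CDC5L*, a core of the PRPF19 complex, at -0.46 (SE 0.05, adjusted *p* = 1.07e-08). Their values with si033 were -0.16 (SE 0.07, adjusted *p* = 0.0485) and -0.17 (SE 0.05, adjusted *p* = 0.00252). With si033 the lowest after *SRPK1* were *SNRNP27*, of the tri-snRNP, at -0.29 (SE 0.07, adjusted *p* = 0.00102), and *DHX15*, a helicase that takes the spliceosome apart, at -0.26 (SE 0.04, adjusted *p* = 1.05e-05). Their values with si025 were -0.19 (SE 0.07, adjusted *p* = 0.0167) and -0.42 (SE 0.04, adjusted *p* = 5.28e-09). *SNRNP200*, the helicase that unwinds U4 from U6, was higher with si033, at 0.20 (SE 0.04, adjusted *p* = 0.000227), and stood at 0.03 (SE 0.04, adjusted *p* = 0.494) with si025.

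The promoters of the list were searched for 3 short motifs, whether or not the gene was called. RefSeq promoter windows (GRCh38.p14, 250 bases before to 50 bases after the start) were found for 58 of the 69 genes. The E-box CACGTG has the letters that MYC with MAX prefers, which read alike on both strands. It lay in a window of 2 of the 58 genes (3.45%), *SF3B1* and *WDR77*. Of 9948 tested genes, 12.4% held it in any of their windows. Of all 35116 windows, taken singly, 7.26% held it. The ETS letters CCGGAAG, searched on both strands, lay in 22 of the 58 (37.9%), against 21.8% of the tested genes and 10.3% of all windows. The palindrome of NRF1 lay in 2 (3.45%, *GEMIN2* and *LSM7*), against 2.57% and 1.24%. Parts of 4 of these windows follow (5′ to 3′ on the gene's strand), with the E-box of *SF3B1* and *WDR77* and the ETS letters of *CLNS1A*, which was higher, and *SNRPB*, which was lower, in capitals.
*SF3B1*, chr2:197435104-197435163, minus strand: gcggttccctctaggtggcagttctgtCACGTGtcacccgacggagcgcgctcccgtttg
*WDR77*, chr1:111449227-111449273, minus strand: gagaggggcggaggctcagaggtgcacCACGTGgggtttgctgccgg
*CLNS1A*, chr11:77637795-77637854, minus strand: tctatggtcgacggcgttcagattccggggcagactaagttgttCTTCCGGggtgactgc
*SNRPB*, chr20:2470790-2470849, minus strand: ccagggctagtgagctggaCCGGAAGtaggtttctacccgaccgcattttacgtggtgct

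In *SF3B1* the stretch begins 135 bases before the start, in *WDR77* 17 bases before it, and in *CLNS1A* and *SNRPB* 60 bases before it; in *CLNS1A* the letters read CTTCCGG, the opposite strand of the motif. A match in these windows is a description of letters and not a bound site, and no match says only that the letters are not in this window.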

How the data were processed

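Stranded total RNA libraries (Illumina kit, 1.3 µg of RNA) of 9 VCaP samples were grouped by their titles. According to the methods of the study, adaptor-trimmed paired-end reads were aligned to GRCh38, and the submitters' processing notes name HISAT2 2.1.0 and featureCounts 1.5.2. Per the file headers, the authors made the deposited counts as whole read pairs per gene symbol over exons, on the sense strand only, with a RefSeq gene file for hg38; GENCODE is the annotation the methods give. The deposited counts carry no normalization, and pairs with several alignments or in overlapping genes of the same strand were left out by default, so copied or overlapping genes are uncertain. The labels name a Promega kit for extraction and the methods a Qiagen kit.

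Counts of all 9 libraries entered 1 fit with 3 group means in edgeR 4.0.16 (R 4.3.3), with TMM normalization, filterByExpr and the quasi-likelihood test. *P* values were adjusted by Benjamini-Hochberg over the 12810 genes tested and called under 0.05. SEs came from the log2 fold change and its F statistic. RPKM divided CPM by the exon length in the files. The biological coefficient of variation was 4.13%, and libraries of a group differed by more than counting noise (chi-square per degree of freedom 1.7 to 5.47 over 11306 genes). The fit was tested on simulated data with 200 changed genes, in the si025 libraries only and equally often up and down. Far more genes were called in the real contrasts, so the simulation does not test the fit at that extent of change. Copies were searched with BLAST+ 2.17.0.

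The genes and lists were chosen with earlier results of these data known. Values of 1 of the 69 genes are not reported here, though counts and sums over the genes include it. Values of every library are given for the 10 genes the rule gives by name, for the 4 called genes with the largest change each way in each contrast and for genes called in opposite directions; of the related list, the 3 largest each way are named. Alternatives were RLE and upper quartile scaling, offsets for gene length, no filter or 5 CPM in 3 libraries, DESeq2 1.42.0, the 2 groups alone, a replicate block, leaving out each library, and, added after the data were seen, leaving out the copied genes.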

Additional observations from a re-analysis of the deposited data

Results flagged for a closer look

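The effects of si025 and si033 against the same control differed, by the direct contrast of si025 with si033 in edgeR's quasi-likelihood test, at 44 of the 65 tested genes. The values given for 43 of them are log2 differences, si025 minus si033, each with an adjusted *p* under 0.05. No separate test for an outlying library was run alongside the edgeR fit. Each library was left out in turn instead.

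Lower with si025, by value, were these. In the Sm ring the differences were -0.44 for *SNRPD1*, -0.40 for *SNRPD2*, -0.39 for *SNRPB*, -0.27 for *SNRPF*, -0.24 for *SNRPE* and -0.20 for *SNRPG*. For the U1 and U2 snRNP proteins they were -0.40 for *SNRPA* and -0.19 for *SNRPC*. For SF3A and SF3B they were -0.52 for *SF3B1*, -0.52 for *SF3B5*, -0.26 for *SF3B4*, -0.26 for *SF3B6*, -0.20 for *SF3B2*, -0.17 for *SF3A3* and -0.11 for *SF3A1*. In the PRPF group they were -0.40 for *PRPF4*, -0.36 for *PRPF40B*, -0.23 for *PRPF6* and -0.13 for *PRPF39*. Among SR proteins they were -0.40 for *SRSF7*, -0.24 for *SRSF2*, -0.20 for *SRSF3*, -0.16 for *SRSF1* and -0.15 for *SRSF10*. Among LSM genes they were -0.45 for *LSM7*, -0.30 for *LSM12*, -0.23 for *LSM4*, -0.20 for *LSM14B* and -0.19 for *LSM5*. In the assembly group they were -0.32 for *CLNS1A*, -0.29 for *PRMT5*, -0.24 for *GEMIN4* and -0.20 for *WDR77*.

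Higher with si025 were 0.65 for *SRSF12*, 0.44 for *SRSF9*, 0.28 for *SRSF11*, 0.22 for *SRSF4*, 0.18 for *SRSF8* and 0.14 for *SRSF6* among SR proteins, 0.22 for *LSM8* among LSM genes, 0.16 for *PRPF38B* in the PRPF group and 0.17 for *SNRPA1* among snRNP proteins. *U2AF1* differed by 3.32, on 1 si025 library, and by -0.10 (adjusted *p* = 0.809) without si025 replicate 3. Of the 44 calls, 38 held in each of the 17 alternatives. Those of *PRPF39* and *SF3A1* were lost in 5 and 6 of them (adjusted *p* up to 0.144 and 0.183).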

How the results depend on the processing

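Over the alternatives that kept every library, between 48 and 53 genes of the list were called with si025, 37 to 47 with si033 and 43 to 48 between the siRNAs. Without single libraries the ranges were 47 to 51, 31 to 47 and 40 to 46. Of the called genes, 45 of 49, 28 of 42 and 38 of 44 kept their call in each of the 17 alternatives. Among the genes not called, a call was gained in at least 1 alternative by 7 with si025 (*PRPF38B*, *PRPF4B*, *PRPF18*, *SRSF8*, *SRSF9*, *LSM14A* and *SRSF6*), 10 with si033 (*SNRPE*, *SF3B1*, *SRSF12*, *SF3B5*, *LSM5*, *SF3B2*, *SRSF8*, *SNRPN*, *LSM14A* and *PRPF6*) and 8 between the siRNAs (*LSM10*, *PRPF3*, *LSM3*, *PRPF18*, *PRPF19*, *SRSF5*, *SF3A2* and *LSM14A*). The median with si025 (-0.26) moved to -0.29 with no filter on low counts and to -0.28 with the 2 groups alone, was -0.23 under upper quartile normalization, and ranged from -0.29 to -0.25 without single libraries. The median with si033 (-0.12) moved to -0.09 under upper quartile normalization, and the cause was not tested. The median of all genes shifted by at most 0.04. Values near 0 that were called in no such setting also changed sign, given here with their ranges without single libraries: with si025 *SRSF4* (-0.11 to 0.02), *SRSF11* (-0.03 to 0.04) and in other settings -0.04 or -0.01, *GEMIN2* (-0.07 to 0.02) and in other settings 0.01 or 0.03; with si033 *PRPF38A* (-0.10 to 0.04), *PRPF18* (-0.02 to 0.09), *GEMIN2* (-0.07 to 0.01), *LSM7* (-0.07 to 0.03); between the siRNAs *PRPF38A* (-0.12 to 0.02), *GEMIN5* (-0.03 to 0.06) and in other settings -0.02, *PRPF4B* (-0.07 to 0.01), *LSM1* (-0.08 to 0.04) and in other settings 0.04, *GEMIN2* (-0.04 to 0.05), *SF3B3* (-0.03 to 0.01), *SNRPB2* (-0.09 to 0.02) and in other settings 0.02, *SNRPD3* (-0.03 to 0.02). Larger values that turned were *LSM14A* with si025 (-0.72 without si025 replicate 2), with si033 (-0.17 without si033 replicate 2) and between the siRNAs (-1.45, adjusted *p* = 0.00776, without si025 replicate 2, and -0.15 without si033 replicate 3), *SNRPN* between the siRNAs (-0.10 without si033 replicate 3) and *U2AF1* between the siRNAs (-0.10, adjusted *p* = 0.809, without si025 replicate 3), with ranges without single libraries of -0.72 to 1.60, -0.17 to 1.24, -1.45 to 1.26, -0.10 to 0.17 and -0.10 to 3.88; DESeq2 gave *U2AF1* no adjusted *p*. Calls in the related list ranged over 20 to 28, 16 to 22 and 23 to 30. The deviations of libraries with the same replicate number had correlations from -0.0214 to 0.0729 across genes. With 3 libraries a group, such values cannot show whether the numbers pair the samples. With the numbers as a replicate block, 50, 43 and 44 genes were called. *LSM2*, *PRPF8*, *PRPF31* and *SMN1* had too few counts for the fit as reported, and the cause was not tested.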
